A study of Rattus norvegicus with 62 samples.

Results

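Liver RNA of rats that had received a high dose of diethylnitrosamine was compared with liver RNA of rats that had received its vehicle, at the terminal sampling (10w), over all genes measured. The members are the 4 arrays titled DEN30/PB and the 4 arrays titled MC/PB at 10w, chosen by title, and they make 8 of the 62 arrays of the series. The series is a carcinogenesis study with 2 stages, initiation and promotion, in male Crj:CD(SD)IGS rats. The initiator was given for 1 or 2 weeks and, after 2 weeks of withdrawal, phenobarbital (PB) was supplied at 500 ppm in the drinking water for 6 weeks as the promoter. Part of each liver was removed 1 week into promotion and gave the 5w sample, and the same animal gave the 10w sample at euthanasia. DEN30/PB rats received diethylnitrosamine at 30 mpk (read here as mg per kg) and MC/PB rats received methylcellulose, the vehicle. Rats of both groups drank PB and had been hepatectomised, so both groups are PB-treated livers that had regrown, and neither is an untreated liver. At 10w, the same fit held DEN3/PB rats (diethylnitrosamine at 3 mpk, 5 arrays), TAA/PB rats (thioacetamide at 45 mpk, 5 arrays), MP/PB rats (methapyrilene at 100 mpk, 5 arrays), APAP/PB rats (acetaminophen at 1000 mpk, 4 arrays) and MC/water rats (vehicle and plain water). Neither the rats' age nor the route of dosing was found in the labels.

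Diethylnitrosamine is activated by cytochrome P450 enzymes of the hepatocyte, chiefly Cyp2e1, to species that alkylate DNA. Some of the initiated hepatocytes later grow into clonal foci of altered cells, and in rats these foci are recognised by the placental glutathione S-transferase Gstp1 and the gamma-glutamyltransferase Ggt1, which normal adult hepatocytes hold at low levels. PB acts through the nuclear receptor CAR (Nr1i3) and favours the growth of such foci, and hepatectomy drives the remaining hepatocytes through the cell cycle.

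The arrays gave a signal intensity per probe set, 31099 in all, and 10546 genes passed the filter on low signals at 10w. Median signals of the 8 arrays lay between 99.3 and 122, and the pairwise correlations of their log2 signals over all probe sets between 0.963 and 0.972. Hepatocyte transcripts were abundant: 27 of 31 listed hepatocyte function genes were measured, and albumin (Alb) gave 46877, 41369, 42314 and 59108 in DEN30/PB livers and 39383, 57032, 61123 and 56397 in MC/PB livers. The residuals of the fit split the arrays of every group into 2 sets, with 14.8% of the residual variation on the first component. Replicates 1 and 3 of DEN30/PB and of MC/PB lay in set 1 and replicates 2 and 4 of each in set 2, and the labels do not say what the sets are. Each set held 2 arrays of each group, so differences within a set are given beside the main results. With so few animals a group, the differences are estimated with low precision. Each p-value sets a difference against a variance pooled over all groups fitted together, and not against the spread of the compared animals alone.

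Few genes passed the test. By limma with Benjamini-Hochberg adjustment, 3 of 10546 genes passed at an adjusted p of 0.05, which is 0.0284% of the genes tested, and each of the 3 rose in DEN30/PB livers: Gstp1, Il13ra2 and Ggt1. At an unadjusted p under 0.05 there were 546 genes (5.18%), of which 373 were higher in DEN30/PB livers (3.54%) and 173 lower (1.64%). The median difference over all genes was 0.02 on the log2 scale. The signals of the 2 groups did not overlap for 208 genes with higher signals in DEN30/PB livers (1.97%) and for 132 genes with lower ones (1.25%). The count rests on few animals: by limma it was 0 without replicate 1 of DEN30/PB (458 genes at an unadjusted p under 0.05) or without replicate 4 of MC/PB (474 genes), and 1 without replicate 2 of DEN30/PB, replicate 1 of MC/PB or replicate 2 of MC/PB. It was also 1 with quantile normalization, and that 1 was Gstp1. Fitted on the 8 arrays alone, 4 genes passed, with Ggt1 and Akr1b8 higher and Slc25a25 and RGD1309362 lower, and neither Gstp1 nor Il13ra2 among them.

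**Figure D1:**
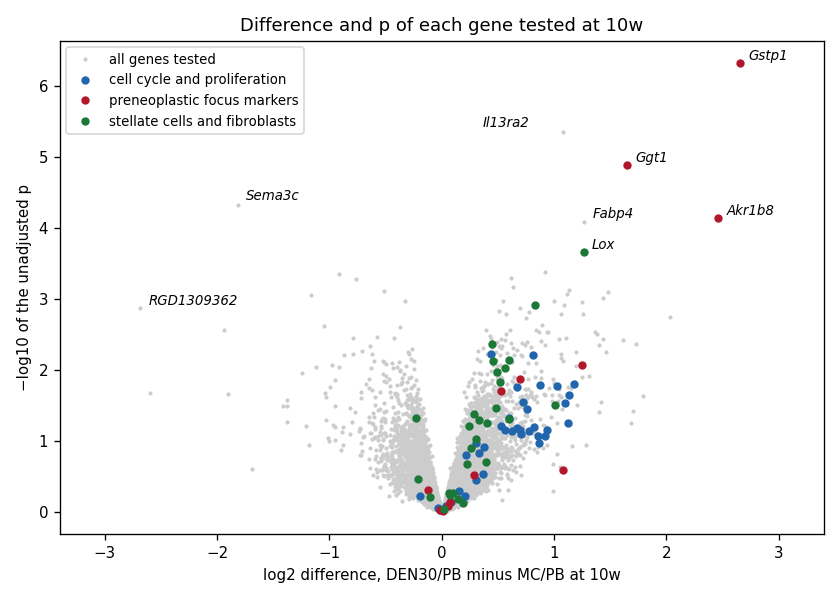
Log2 difference of each of 10546 genes (DEN30/PB minus MC/PB at 10w, horizontal) against −log10 of its unadjusted p (vertical). Grey points are all genes, and coloured points are the cell cycle genes (blue), the markers of preneoplastic foci (red) and the genes of stellate cells and fibroblasts (green). Gstp1, Il13ra2 and Ggt1 lie highest, and most blue and green points lie right of 0.

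Gstp1, the glutathione S-transferase of the placental form and the standard marker of rat liver foci, had the largest positive difference of all genes tested. Its signal was 11907, 4174, 13557 and 2634 in DEN30/PB livers, against 1728, 954, 835 and 759 in MC/PB livers. Every DEN30/PB liver lay above every MC/PB liver, and the DEN30/PB livers spread widely, with replicates 1 and 3 far above replicates 2 and 4. Gstp1 rose by 2.65 ± 0.41 on the log2 scale (SE, n = 4 each), or 6.29-fold on the log2(signal + 25) scale, with an adjusted p of 0.00497 by limma. Within the array sets the difference was 3.37 in set 1 and 1.93 in set 2. The call was lost when only the 8 arrays were fitted (adjusted p = 0.106 by limma). Likewise it was lost without replicate 1 of DEN30/PB (adjusted p = 0.0521 by limma), without replicate 4 of MC/PB (0.0527) and within set 2 alone (0.473). Each SE, here and below, comes from the variance pooled over all groups of its fit, and is not the spread of the compared arrays alone. The SD on the log2 scale was 1.15 within DEN30/PB and 0.52 within MC/PB.

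The Gstp1 promoter is shown because this gene leads the comparison and because elements of this kind are known from work on its regulation in rat liver. The window of 300 bases around the start of Gstp1 in RefSeq lies at chr1:210769656-210769955 on the minus strand of GRCr8. Capitals mark the match to TGANTCA, the AP-1 type motif, which overlaps a match to TGACNNNGC, the core of the antioxidant response element; both strands were searched.
Gstp1: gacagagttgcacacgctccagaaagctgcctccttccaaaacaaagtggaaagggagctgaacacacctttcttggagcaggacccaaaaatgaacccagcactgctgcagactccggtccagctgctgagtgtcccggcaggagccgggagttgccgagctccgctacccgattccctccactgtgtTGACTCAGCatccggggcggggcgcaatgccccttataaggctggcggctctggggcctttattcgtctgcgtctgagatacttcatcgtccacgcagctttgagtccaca
The matched bases are TGACTCAGC, beginning at position -61 relative to the start site. TGANTCA was held by 4.8% and TGACNNNGC by 14.8% of the promoters of the 8837 tested genes found in the RefSeq table, and by 7.33% and 12.1% of all 33469 promoters. In the same windows of Akr1b8 (chr4:63964171-63964470, plus strand) and Ggt1 (chr20:13095055-13095354, minus strand) these letters were not found. A match is a description of the letters and no evidence of binding.

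Ggt1, which cleaves glutathione at the cell surface and is the classical enzyme marker of the same foci, had signals of 502, 690, 564 and 313 in DEN30/PB livers, against 123, 125, 150 and 178 in MC/PB livers. The groups did not overlap, and the lowest DEN30/PB liver was replicate 4, which also had the lowest Gstp1. Ggt1 rose by 1.65 ± 0.31 on the log2 scale (SE, n = 4 each), or 3.13-fold, with an adjusted p of 0.0458 by limma. The difference was 1.79 within set 1, and within set 2 Ggt1 had 690 and 313 in DEN30/PB livers against 125 and 178 in MC/PB livers. Its adjusted p lay close to the threshold and passed in 5 of 20 other settings; with a replicate block it was 0.062.

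Il13ra2, the decoy receptor that binds interleukin 13, had signals of 307, 468, 303 and 316 in DEN30/PB livers, against 137, 129, 185 and 152 in MC/PB livers. The groups did not overlap, and apart from replicate 2 the DEN30/PB livers were close to each other. Il13ra2 rose by 1.08 ± 0.19 on the log2 scale (SE, n = 4 each), or 2.11-fold, with an adjusted p of 0.0235 by limma. The difference was 0.84 within set 1 and 1.32 within set 2, and it passed in 11 of 20 other settings.

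**Figure D2:**
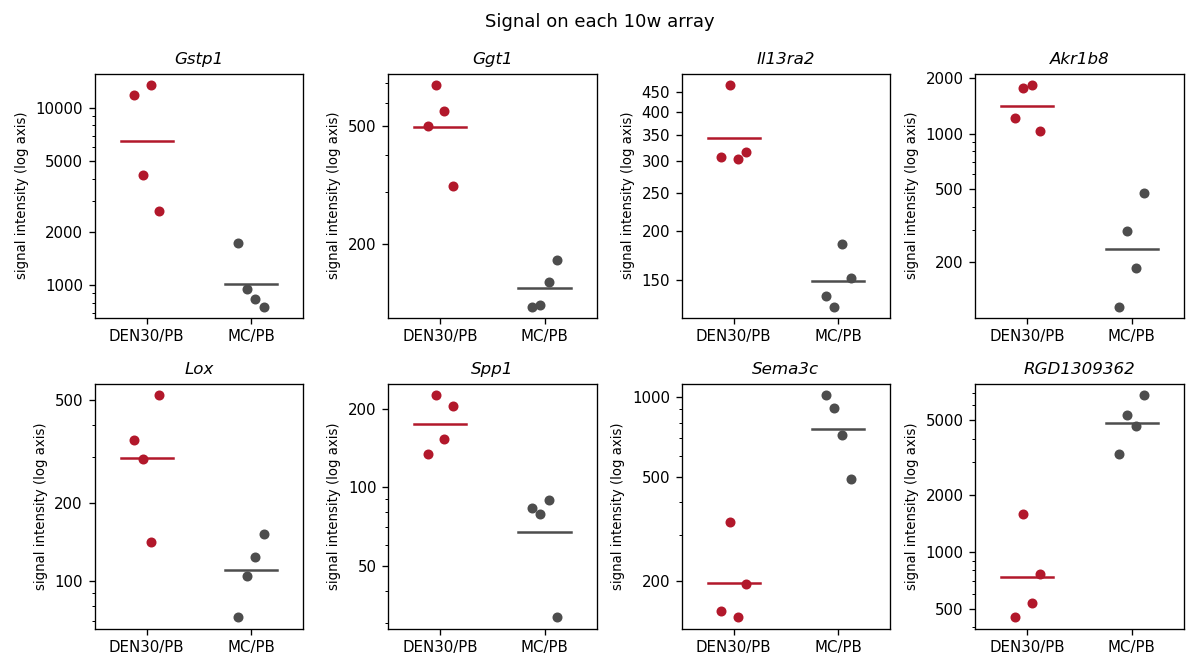
Signal intensity (vertical, log axis) on each 10w array for 8 genes, with DEN30/PB left and MC/PB right. Points are animals and lines are means taken on the log2(signal + 25) scale. Lox alone shows overlapping groups, and the lowest DEN30/PB liver for it is replicate 3 at 141.

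Of 18 listed markers of preneoplastic foci 13 were measured, and the 2 that passed the test were Gstp1 and Ggt1 themselves, against 0.0284% of all genes. With these 2 included, there were 6 higher genes and 0 lower at an unadjusted p under 0.05, against 3.54% and 1.64% of all genes, and 5 had higher groups that did not overlap, against 1.97%. The median difference of the 13 genes was 0.53, against 0.02 over all genes. It was 0.49 within set 1, 0.24 within set 2 and 0.33 without replicate 1 of DEN30/PB. Of the 13 genes, 1 passed the filter only through its DEN30/PB signals.

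Akr1b8, an aldo-keto reductase that clears reactive aldehydes, had signals of 1207, 1758, 1841 and 1036 in DEN30/PB livers, against 115, 294, 187 and 473 in MC/PB livers. The groups were far apart in every animal, and the MC/PB livers spread more widely than the DEN30/PB livers on the log scale. The difference was 2.46 ± 0.53 (SE, n = 4 each; 5.51-fold), and its adjusted p of 0.143 by limma missed the threshold. Its relative Akr1b7 had 167, 101, 240 and 90.1 in DEN30/PB livers and 52.1, 96.4, 3.78 and 61.3 in MC/PB livers, where no liver reached 100, the minimum signal of the filter, so the ratio against that minimum was at least 1.42-fold. The 2 are close paralogs, and cross-hybridisation between their probe sets was not tested. Anxa2, a membrane-binding annexin, had 734, 1224, 1025 and 934 in DEN30/PB livers and 603, 684, 617 and 463 in MC/PB livers, without overlap (difference 0.69 ± 0.26, unadjusted p = 0.0133 by limma). Gpx2, a glutathione peroxidase of epithelia, had 176, 240, 814 and 129 in DEN30/PB livers and 43.1, 1108, 51.8 and 32.9 in MC/PB livers. The highest Gpx2 signal of the 8 thus belonged to an MC/PB liver, and its difference turned sign between the array sets, at 2.51 within set 1 and -0.34 within set 2.

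Gstp1 and Akr1b8 also belong to the targets of the oxidant-responsive factor NRF2 (Nfe2l2), and the other measured targets had differences around 0. Of 23 measured NRF2 targets, 2 were higher at an unadjusted p under 0.05, namely Gstp1 and Akr1b8, against 3.54% of all genes. None was lower at that p, against 1.64% of all genes, and the list's median was 0.03. Nqo1, the quinone reductase, had 9813, 7791, 11963 and 6705 in DEN30/PB livers and 8749, 10631, 10590 and 9298 in MC/PB livers. The difference of Nqo1 was -0.14 ± 0.26, and that of the heme oxygenase Hmox1 was -0.17 ± 0.21. Neither difference was larger than its SE. Of 29 measured glutathione metabolism genes, 2 passed, again Gstp1 and Ggt1, against 0.0284% of all genes, and the median was -0.05.

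The cell cycle genes were higher as a group in DEN30/PB livers at 10w. Of 40 listed genes 37 were measured, and 34 of them had a positive difference. None passed the adjusted threshold, where 3 genes of all passed; at an unadjusted p under 0.05 there were 11 higher and 0 lower, against 3.54% and 1.64% of all genes. The groups did not overlap for 12 of them, each higher in DEN30/PB livers, against 1.97% of all genes. The median difference was 0.67, and it was 0.73 within set 1, 0.42 within set 2 and between 0.51 and 0.76 when any of the 8 arrays was left out.

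Cdk1, the kinase that drives entry into mitosis, had signals of 369, 232, 551 and 364 in DEN30/PB livers, against 278, 171, 80.1 and 184 in MC/PB livers. The highest MC/PB liver lay above the lowest DEN30/PB liver. Its difference was 1.03 ± 0.41 (SE, n = 4 each; unadjusted p = 0.0166 and adjusted p = 0.888 by limma). Cdc20, an activator of the anaphase-promoting complex, had 279, 251, 439 and 243 in DEN30/PB livers and 168, 192, 117 and 159 in MC/PB livers, without overlap (difference 0.81 ± 0.28, unadjusted p = 0.00615 by limma). Another Cdc20 probe set differed by 0.67 ± 0.53 when all probe sets were fitted (unadjusted p = 0.214 by limma). Rrm1, a subunit of ribonucleotide reductase, had 448, 386, 418 and 427 in DEN30/PB livers and 268, 371, 276 and 307 in MC/PB livers, also without overlap (difference 0.44 ± 0.15, unadjusted p = 0.00596 by limma). Ccna2, the cyclin of S phase and G2, had 356, 152, 414 and 239 in DEN30/PB livers and 128, 122, 91.3 and 119 in MC/PB livers. In Ccna2, as in Cdk1 and Cdc20, replicate 3 was the highest DEN30/PB liver, and it was also the highest for Gstp1.

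Among other members, the centromere protein Cenpf had 172, 180, 221 and 156 in DEN30/PB livers and 145, 116, 79.3 and 88.2 in MC/PB livers. The spindle checkpoint kinase Bub1 had 155, 149, 240 and 175 in DEN30/PB livers and 129, 108, 83.5 and 67.3 in MC/PB livers. Neither gene overlapped between the groups. E2f1, a transcription factor that opens S phase, had 147, 117, 129 and 139 in DEN30/PB livers, while no MC/PB liver reached 100. Its ratio, taken against that minimum, was at least 1.33-fold. The proliferation antigen Mki67 had 174, 224, 284 and 248 in DEN30/PB livers and 161, 153, 82.4 and 83.6 in MC/PB livers, and the topoisomerase Top2a had 309, 248, 436 and 257 in DEN30/PB livers and 300, 155, 139 and 151 in MC/PB livers. Ccnd1, the cyclin of G1 entry, had 1819, 3560, 2347 and 1807 in DEN30/PB livers and 2334, 968, 1098 and 950 in MC/PB livers, with replicate 1 of MC/PB among the DEN30/PB values. Replicate 2 was the highest DEN30/PB liver for Ccnd1, where replicate 3 had been for the mitotic genes.

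The Cdk1 promoter is shown because the cell cycle genes were higher together and because promoters of mitotic genes commonly carry CCAAT boxes, bound by NF-Y, and the cell cycle homology element TTTGAA. The RefSeq window of Cdk1 lies at chr20:19265043-19265342 on the plus strand of GRCr8, and that of Cdc20 at chr5:137255750-137256049 on the minus strand. Capitals mark CCAAT or its reverse complement and TTTGAA; both strands were searched, and the 2 motifs do not overlap each other.
Cdk1: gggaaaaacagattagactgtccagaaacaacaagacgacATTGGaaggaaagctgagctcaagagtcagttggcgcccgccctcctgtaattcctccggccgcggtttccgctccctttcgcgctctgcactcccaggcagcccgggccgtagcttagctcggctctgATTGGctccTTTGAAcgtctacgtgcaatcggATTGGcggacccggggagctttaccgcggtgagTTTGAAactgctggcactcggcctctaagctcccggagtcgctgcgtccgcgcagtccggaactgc
Cdc20: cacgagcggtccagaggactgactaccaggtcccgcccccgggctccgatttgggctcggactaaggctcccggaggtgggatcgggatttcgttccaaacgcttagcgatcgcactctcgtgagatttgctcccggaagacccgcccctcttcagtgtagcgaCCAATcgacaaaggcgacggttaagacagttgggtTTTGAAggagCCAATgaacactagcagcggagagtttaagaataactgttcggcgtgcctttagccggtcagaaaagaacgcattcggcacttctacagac
Cdk1 held 3 copies of the CCAAT motif and 2 of TTTGAA, and Cdc20 held 2 and 1. The window of Cenpf held both motifs, and that of Rrm1 held 1 CCAAT and no TTTGAA. Of the 28 cell cycle genes with a promoter in the table, 21 (75%) held CCAAT and 12 (42.9%) held TTTGAA, against 38.1% and 11.6% of the 8837 tested genes. Both motifs stood in 11 of 28 (39.3%), against 4.84% of the tested genes. These shares describe the listed genes and do not depend on the differences between DEN30/PB and MC/PB livers.

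The p53 response and DNA repair are engaged soon after DNA alkylation, and at this time, weeks after the last dose, both lists had medians near that of all genes. Of 19 measured p53 targets, 1 was higher and 2 were lower at an unadjusted p under 0.05, with a median of 0.02. Over all genes, 3.54% were higher and 1.64% lower at that p. Of the 19 targets, 1 passed the filter only through its DEN30/PB signals. Cdkn1a, the p21 inhibitor of cyclin-dependent kinases, had 558, 752, 690 and 587 in DEN30/PB livers and 926, 1078, 742 and 1368 in MC/PB livers. Replicate 2 of DEN30/PB overlapped replicate 3 of MC/PB, and the difference was -0.62 ± 0.21 (SE, n = 4 each; adjusted p = 0.684 by limma). Sesn2, a stress-induced inhibitor of mTORC1 signalling, had 722, 727, 842 and 770 in DEN30/PB livers and 955, 1031, 1332 and 1125 in MC/PB livers, without overlap (difference -0.52 ± 0.14, adjusted p = 0.526 by limma). Another Sesn2 probe set differed by -0.12 ± 0.27 when all probe sets were fitted (unadjusted p = 0.659 by limma). Mdm2 differed by 0.08 ± 0.17 and Ccng1 by 0.07 ± 0.19, each smaller than its SE. Of 24 measured DNA repair genes, 1 was higher and 0 were lower at an unadjusted p under 0.05, with a median of 0.03, and Mgmt, which removes alkyl groups from guanine, differed by 0.29 ± 0.19.

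Genes of stellate cells, fibroblasts and matrix were higher in most DEN30/PB livers. Of 32 listed genes 28 were measured, and 12 were higher and 1 lower at an unadjusted p under 0.05, against 3.54% and 1.64% of all genes. None passed the adjusted threshold. The groups did not overlap for 2 of the 28, each higher in DEN30/PB livers, against 1.97% of all genes. Of the 28 genes, 1 passed the filter only through its DEN30/PB signals and stayed in the counts and the median. The median difference was 0.32, with 0.16 within set 1 and 0.48 within set 2. With 1 array left out it ran from 0.24 without replicate 2 of DEN30/PB to 0.50 without replicate 3 of DEN30/PB. The median of these genes, relative to the mean of MC/PB, was 0.33, 0.47, -0.03 and 0.58 in the 4 DEN30/PB livers and -0.15, 0.02, 0.00 and 0.12 in the 4 MC/PB livers. Replicate 3 of DEN30/PB thus lay with the MC/PB livers here, although it had the highest Gstp1 and cell cycle signals. Bulk tissue was measured, so more cells of a type and more RNA per cell cannot be told apart; the summed signal of the list was 35379 to 55307 in DEN30/PB livers and 36884 to 47686 in MC/PB livers, and the part of cell numbers in these differences was not tested.

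Lox, lysyl oxidase, which crosslinks collagen, had signals of 350, 295, 141 and 518 in DEN30/PB livers, against 72.1, 104, 123 and 152 in MC/PB livers. Replicate 3 of DEN30/PB lay below replicate 4 of MC/PB, and the other DEN30/PB livers lay above all MC/PB livers. The difference was 1.26 ± 0.30 (SE, n = 4 each; adjusted p = 0.331 by limma), and without replicate 3 of DEN30/PB the adjusted p was 0.0311 by limma. In MC/water livers, which had no PB, Lox lay between 649 and 2986, above every DEN30/PB liver. Col1a1, the alpha 1 chain of type I collagen, had 442, 715, 334 and 989 in DEN30/PB livers and 221, 355, 355 and 329 in MC/PB livers (difference 0.83 ± 0.23, adjusted p = 0.526 by limma). Ptn, the heparin-binding growth factor pleiotrophin, had 583, 365, 179 and 524 in DEN30/PB livers and 243, 134, 124 and 156 in MC/PB livers, again with replicate 3 lowest in DEN30/PB.

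The basement membrane collagen Col4a1 differed by 0.44 ± 0.14 and the matrix-bound calcification inhibitor Mgp by 0.60 ± 0.21. The gelatinase Mmp2 had 504, 551, 365 and 541 in DEN30/PB livers and 329, 351, 290 and 316 in MC/PB livers, without overlap (difference 0.56 ± 0.18, unadjusted p = 0.00381 by limma). Another Mmp2 probe set differed by 0.36 ± 0.30 when all probe sets were fitted (unadjusted p = 0.244 by limma). Of 17 measured matrix proteases, their inhibitors and lysosomal enzymes, 6 were higher and 0 lower at an unadjusted p under 0.05 (3.54% and 1.64% of all genes). Their median was 0.23, which was 0.11 without replicate 3 of MC/PB. Of these 17, 1 passed the filter only through its DEN30/PB signals. Lgals3bp, a secreted ligand of galectins, had 1913, 2731, 1870 and 1843 in DEN30/PB livers and 1170, 981, 828 and 1143 in MC/PB livers. The groups were apart (difference 1.00 ± 0.27, adjusted p = 0.526 by limma), and of 6 measured galectin genes 3 were higher at an unadjusted p under 0.05.

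Markers of macrophages, endothelium and lymphocytes had few members past an unadjusted p of 0.05. Of 16 measured Kupffer cell and macrophage genes, 1 was higher and 0 were lower at an unadjusted p under 0.05 (median 0.20), and for 17 endothelial genes the counts were 1 and 0 (median 0.16) and for 15 lymphocyte genes 0 and 0 (median 0.16), against 3.54% and 1.64% of all genes. These 3 medians were lower without 1 array: 0.047 for macrophages and 0.058 for endothelium without replicate 3 of MC/PB, and 0.012 for lymphocytes without replicate 4 of DEN30/PB. Of the 15 lymphocyte genes, 1 passed the filter only through its DEN30/PB signals. Of 18 listed biliary and progenitor genes only 9 were measured, with 4 higher and 1 lower at an unadjusted p under 0.05 (3.54% and 1.64% of all genes) and a median of 0.53. The difference was positive for 6 of the 9 and negative for 3. Spp1, the matrix protein osteopontin, had 133, 224, 153 and 204 in DEN30/PB livers, against 83.1, 79.0, 89.4 and 31.6 in MC/PB livers, so its ratio against the minimum of 100 was at least 1.75-fold. The bile duct keratin Krt19 had 179, 254, 152 and 137 in DEN30/PB livers and 101, 91.2, 138 and 89.6 in MC/PB livers. Onecut1, a factor of hepatocytes and ducts alike, ran the other way with 1410, 641, 1690 and 2205 in DEN30/PB livers and 3404, 3811, 3031 and 4501 in MC/PB livers. Epcam, a marker of the same list, differed by -0.02. The summed signal of the list, Onecut1 included, was 4242 to 5321 in DEN30/PB livers and 5586 to 7009 in MC/PB livers, where the duct markers Krt7, Cftr and Sctr were below the filter and Sox9 had no probe set of its own; the part of duct cells in these values was not tested.

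Oncofetal genes, which the fetal liver expresses and liver tumours often take up again, were measured for 7 of 16 listed genes. At an unadjusted p under 0.05 there were 3 higher and 0 lower, against 3.54% and 1.64% of all genes. The median was 0.40, and it was 0.29 without replicate 4 of MC/PB and 0.61 without replicate 3 of DEN30/PB. Gpc3, the cell surface proteoglycan glypican 3, had 176, 263, 133 and 182 in DEN30/PB livers and 94.2, 98.5, 82.4 and 115 in MC/PB livers, without overlap (difference 0.77 ± 0.22, adjusted p = 0.559 by limma). H19, an imprinted noncoding RNA, had 298, 118, 176 and 175 in DEN30/PB livers and 23.5, 60.6, 147 and 101 in MC/PB livers. Afp, alpha-fetoprotein, had 1310, 975, 1036 and 1661 in DEN30/PB livers and 776, 709, 1086 and 814 in MC/PB livers. In both H19 and Afp a single MC/PB liver, replicate 3, reached into the DEN30/PB values.

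Some metabolic lists had mostly negative differences and others did not: fatty acid synthesis had 10 higher and 9 lower of 19 (median 0.03), and the urea cycle and glutamine list 7 and 6 of 13 (median 0.02). Of 23 measured PPARalpha targets and genes of fatty acid oxidation, 22 had a negative difference, 7 of them at an unadjusted p under 0.05 against 1.64% of all genes, and the median was -0.17. Cd36, a fatty acid transporter, had 895, 830, 580 and 499 in DEN30/PB livers and 1676, 1125, 1069 and 1023 in MC/PB livers, without overlap (difference -0.79 ± 0.25, adjusted p = 0.684 by limma). Decr1, a reductase of mitochondrial beta-oxidation, had 6605, 6673, 5515 and 6412 in DEN30/PB livers and 9201, 7335, 8488 and 7813 in MC/PB livers, also without overlap. Angptl4, a fasting-induced inhibitor of lipoprotein lipase, had 1360, 801, 649 and 2204 in DEN30/PB livers and 3035, 1769, 2454 and 2180 in MC/PB livers. Of 20 measured genes of cholesterol synthesis, 19 had a negative difference, but 1 at an unadjusted p under 0.05, with a median of -0.28, which was -0.15 without replicate 4 of DEN30/PB. Of 27 hepatocyte function genes 24 had a negative difference with a median of -0.12 (-0.20 without replicate 1 and -0.063 without replicate 3 of MC/PB), and the tyrosine aminotransferase Tat, at 9615, 6393, 5411 and 7225 in DEN30/PB livers and 10767, 11212, 10839 and 10337 in MC/PB livers, did not overlap between them.

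The response to PB, which both groups received, was followed in 21 measured genes of PB-inducible metabolism. Of these, 0 passed an unadjusted p under 0.05 in either direction, against 5.18% of all genes. The median was -0.10, with members between -0.45 and 0.28. The aldehyde dehydrogenase Aldh1a1 had 19470, 33377, 27182 and 14459 in DEN30/PB livers and 29177, 27707, 27246 and 31070 in MC/PB livers, against 1402 to 2195 in MC/water livers. The transporter Abcc3 had 1654, 3192, 1959 and 811 in DEN30/PB livers and 2515, 2657, 1620 and 2372 in MC/PB livers, against at most 75.3 in MC/water livers. Both genes were thus high with PB in either group, and in both the lowest of the 8 livers was replicate 4 of DEN30/PB. Cyp2e1, the enzyme that activates diethylnitrosamine, differed by 0.21 ± 0.15. The classical PB targets Cyp2b1 and Cyp2b2 have no probe set with a single gene symbol and were not tested.

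**Figure D3:**
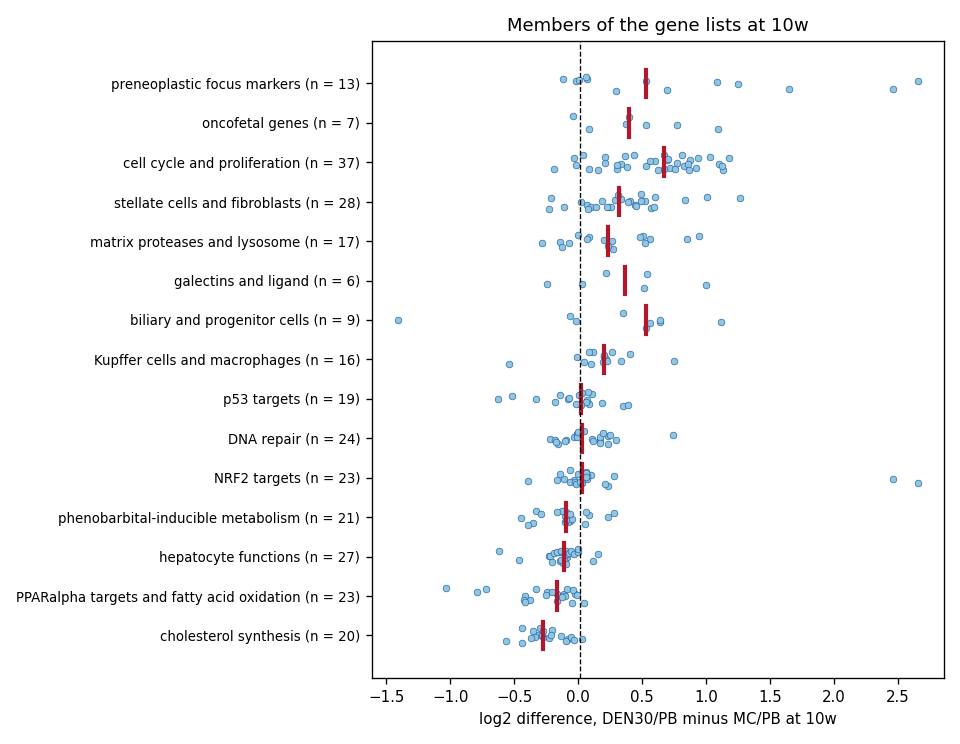
Log2 difference (DEN30/PB minus MC/PB at 10w, horizontal) of each measured member of 15 gene lists, with the number of members beside each name. Points are genes, red bars are medians of the lists, and the dashed line is the median of all 10546 genes, 0.02. Of the 15 lists, the cell cycle list has the highest median, 0.67, and the cholesterol synthesis list the lowest, -0.28.

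Several more genes stood among the 30 with the smallest p, of which 23 were higher and 7 lower in DEN30/PB livers. In 23 of the 30 the groups did not overlap, against 1.97% of all genes higher and 1.25% lower. The 30 were chosen by their p in this comparison, so separated groups were favoured by the choice. Sema3c, a secreted semaphorin, had signals of 154, 337, 146 and 196 in DEN30/PB livers, against 1017, 915, 718 and 490 in MC/PB livers. The groups did not overlap, and MC/water livers, at 166 to 215, lay with the DEN30/PB livers. The difference was -1.82 ± 0.38 (SE, n = 4 each; adjusted p = 0.125 by limma). RGD1309362, whose RefSeq synonym is Ifgga1 and whose function is not described in the files, had 448, 1586, 534 and 759 in DEN30/PB livers, against 3293, 5327, 4660 and 6779 in MC/PB livers. Its difference of -2.68 ± 0.76 was the largest negative one of all genes tested (adjusted p = 0.548 by limma). Animals of other groups held both levels, from 377 to 7253 in TAA/PB livers and from 591 to 7877 in APAP/PB livers.

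Fabp4, a fatty acid binding protein of adipocytes, macrophages and endothelium, had 175, 420, 219 and 220 in DEN30/PB livers and 70.3, 84.0, 67.7 and 140 in MC/PB livers, without overlap (difference 1.27 ± 0.28, adjusted p = 0.143 by limma). Fmo1, a flavin monooxygenase, had 2930, 1359, 1467 and 2067 in DEN30/PB livers and 850, 546, 674 and 584 in MC/PB livers, and MC/water livers lay between 1143 and 1728. Fmo1 signals of MC/PB livers were thus below those of both other groups. The complement protease C1r had 9870, 8311, 7940 and 7643 in DEN30/PB livers and 13636, 11584, 17466 and 14949 in MC/PB livers, without overlap (difference -0.76 ± 0.20). Emp1, an epithelial membrane protein, had 567, 725, 515 and 517 in DEN30/PB livers and 360, 297, 442 and 386 in MC/PB livers, without overlap (difference 0.61 ± 0.16, adjusted p = 0.499 by limma). Obp3, a male-biased lipocalin of rat liver, had 15243, 14356, 10136 and 17610 in DEN30/PB livers and 7191, 4285, 3750 and 2750 in MC/PB livers. For Obp3 the MC/water livers, at 22558 to 27137, were higher still. Obp3 was not among the 30 genes with the smallest p. Of the 14 measured male-biased genes, 8 had a positive and 6 a negative difference, with a median of 0.11.

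The other initiators at 10w served to show which differences went with the high dose of diethylnitrosamine. These comparisons use the same DEN30/PB arrays as the main one, so they are given side by side and not as separate support. Against the mean of TAA/PB, MP/PB and APAP/PB, 9 genes passed by limma (0.0853%), 6 higher (0.0569%) and 3 lower (0.0284%) in DEN30/PB livers. By limma, Gstp1 rose by 2.73 ± 0.33 (adjusted p = 4.35e-05), Akr1b8 by 3.30 ± 0.43 (8.51e-05) and Il13ra2 by 1.12 ± 0.15 (0.000181) on the log2 scale. In the same limma fit, Emp1 rose by 0.69 ± 0.13 (0.0177), Ggt1 by 1.28 ± 0.25 (0.043) and Ptn by 1.18 ± 0.24 (0.0479). Cela1, an elastase, fell by 1.24 ± 0.25, the COPII coat component Sec16b by 0.44 ± 0.09 and the actin-binding protein Mtss1 by 0.44 ± 0.09, each with an adjusted p of 0.0479. Against MC/PB, Akr1b8 passed only in 2 of 20 other settings, an offset of 100 and a fit of only the compared groups (adjusted p = 0.00501 and 0.039 by limma). Its signals were 1036 to 1841 in DEN30/PB livers, 57.8 to 343 in TAA/PB livers, 8.71 to 342 in MP/PB livers and 91.0 to 187 in APAP/PB livers. The number of calls was 3 without replicate 1 of DEN30/PB, and these 3 were Gstp1, Akr1b8 and Il13ra2.

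Cell cycle genes were also higher against those initiators, with 16 of 37 at an unadjusted p under 0.05 (5.71% of all genes, and 9.58% in either direction) and a median of 0.49. Stellate cell and fibroblast genes were higher for 14 of 28 and lower for 1, with a median of 0.29. Hepatocyte function genes were lower for 11 of 27 (3.87% of all genes), with a median of -0.18.

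The low dose of the same agent gave smaller signals for the leading genes. Gstp1 ranged over 894 to 4357 in DEN3/PB livers with a median of 2041, so the DEN3/PB range crossed the lower DEN30/PB livers and the MC/PB livers. Ggt1 lay between 140 and 281 in DEN3/PB livers, Il13ra2 between 154 and 212 and Akr1b8 between 231 and 683, below every DEN30/PB liver in each case. In DEN30/PB minus DEN3/PB, 0 of 10546 genes passed by limma (0%), with 453 at an unadjusted p under 0.05 (4.3%). Gstp1 differed by 1.75 ± 0.39, Il13ra2 by 0.81 ± 0.18 and Ggt1 by 1.32 ± 0.30, each with an adjusted p of 0.324. In DEN3/PB minus MC/PB, which shares its MC/PB arrays with the main comparison, Gstp1 differed by 0.90 ± 0.39 (adjusted p = 1.00 by limma), and the cell cycle median was 0.02. That comparison had 2 genes past the adjusted threshold (0.019%), Stard8 higher and Poglut2 lower (0.00948% each), and 4.55% of genes at an unadjusted p under 0.05 (2.84% higher and 1.71% lower). Of the cell cycle genes, 13 of 37 were higher in DEN30/PB than in DEN3/PB livers at an unadjusted p under 0.05 and 0 were lower (2.28% and 2.02% of all genes), with a median of 0.58.

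**Figure D4:**
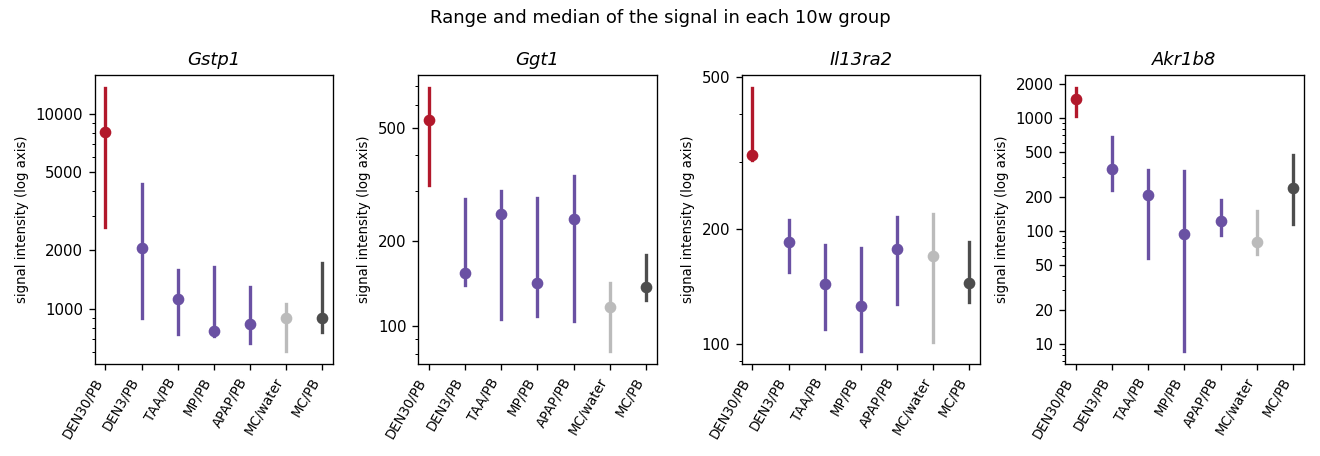
Signal intensity (vertical, log axis) of Gstp1, Ggt1, Il13ra2 and Akr1b8 in the groups at 10w, DEN30/PB first and MC/PB last. Lines run from the lowest to the highest liver of a group and points are medians. Ggt1, Il13ra2 and Akr1b8 have a DEN30/PB range above all others except that the highest Ggt1 of APAP/PB, 338, exceeds the lowest of DEN30/PB, 313, and for Gstp1 the DEN3/PB range reaches 4357.

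The same contrast in the hepatectomy samples of the same animals shows which differences were already present 1 week into promotion. At 5w, 12 of 10491 genes passed by limma (0.114%), 10 higher (0.0953%) and 2 lower (0.0191%). With a replicate block 9 passed, and Cd36, Cygb and Gria3 did not. All 12 had the same direction at 10w, 8 of them at an unadjusted p under 0.05, and 1 of them, Gstp1, passed at both weeks; over all 10312 genes tested at both weeks, 62.3% had the same direction. The samples of both weeks came from the same animals and are not independent. The p-values of the 10w minus the 5w difference, given below, took the arrays as independent. With the animal as a random block, 504 genes had an unadjusted p under 0.05 by limma in that test, against 216 without it. In either fit 0 genes passed the adjusted threshold.

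Gstp1 at 5w had 4016, 1565, 5807 and 1349 in DEN30/PB livers, against 1121, 853, 907 and 658 in MC/PB livers. The order of the 4 DEN30/PB animals was the same at both weeks, and each had a higher signal at 10w than at 5w. Its difference was 1.58 ± 0.30 at 5w (adjusted p = 0.017 by limma), and the 10w difference exceeded it by 1.07 ± 0.53 (unadjusted p = 0.048, adjusted p = 1.00). Ggt1 differed by 0.72 ± 0.31 at 5w and Akr1b8 by 1.17 ± 0.44, with 267, 442, 453 and 363 in DEN30/PB livers and 128, 111, 181 and 205 in MC/PB livers at 5w. Il13ra2 had 306, 421, 304 and 270 in DEN30/PB livers and 207, 190, 201 and 184 in MC/PB livers at 5w, and replicate 2 of DEN30/PB was the highest at both weeks.

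Lox and Adam8, a membrane-bound metalloprotease, had larger differences at 5w than at 10w, but no change between the weeks passed the adjusted threshold. Lox rose at 5w by 2.07 ± 0.31 (adjusted p = 0.00155 by limma), with 702, 393, 401 and 625 in DEN30/PB livers and 103, 117, 137 and 66.4 in MC/PB livers. Adam8 rose at 5w by 1.93 ± 0.26 (adjusted p = 0.000473 by limma), with 269, 235, 348 and 203 in DEN30/PB livers and 54.6, 43.5, 52.1 and 48.3 in MC/PB livers. At 10w Adam8 had 99.9, 45.1, 103 and 101 in DEN30/PB livers and no MC/PB liver above 60.8, a difference of 0.85 ± 0.37. All MC/PB signals of Adam8 were below the minimum of 100 at both weeks, so its log2 differences rest on low signals. The 10w minus the 5w difference was -0.81 ± 0.45 for Lox (unadjusted p = 0.0761 by limma) and -1.08 ± 0.45 for Adam8 (unadjusted p = 0.019), each with an adjusted p of 1.00. Lgals3bp rose by 1.37 ± 0.23 at 5w (adjusted p = 0.00465 by limma), and Cela1 fell by 1.31 ± 0.26 (0.0264). The long noncoding RNA Pvt1, a neighbour of Myc, rose by 1.11 ± 0.22 at 5w (0.0264) and differed by 0.57 ± 0.26 at 10w, while Myc differed by -0.08 ± 0.35 at 10w.

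Cell cycle genes, higher as a group at 10w, had a median near 0 at 5w. At 5w 1 of 36 was higher and 0 were lower at an unadjusted p under 0.05, and the median was -0.01, against 3.87% and 1.94% of all genes (5.81% in either direction). Cdc20 at 5w had 319, 134, 208 and 179 in DEN30/PB livers, against 295, 223, 390 and 209 in MC/PB livers, and Cdk1 had 299, 173, 267 and 148 in DEN30/PB livers, against 276, 182, 241 and 161 in MC/PB livers. The groups overlapped for both genes, and 2 members of the list did not overlap at 5w, Ccnd1 (higher in DEN30/PB livers) and Mcm2 (lower). In the test of the 10w difference minus the 5w difference, without a block for the animal, 0 of 10910 genes passed by limma (0%). There, 216 had an unadjusted p under 0.05 (1.98%). At that level 6 of 37 cell cycle genes had a larger difference at 10w (1.05% of all genes) and 0 a smaller one (0.926%). The median of the cell cycle genes in that test was 0.61. Stellate cell and fibroblast genes had 12 of 29 higher at 5w with a median of 0.36, of which 6 had groups that did not overlap (2.2% of all genes higher and 1.46% lower at 5w), and a median of -0.03 for the 10w minus the 5w difference. PPARalpha targets had 5 of 23 lower at 5w with a median of -0.16.

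**Figure D5:**
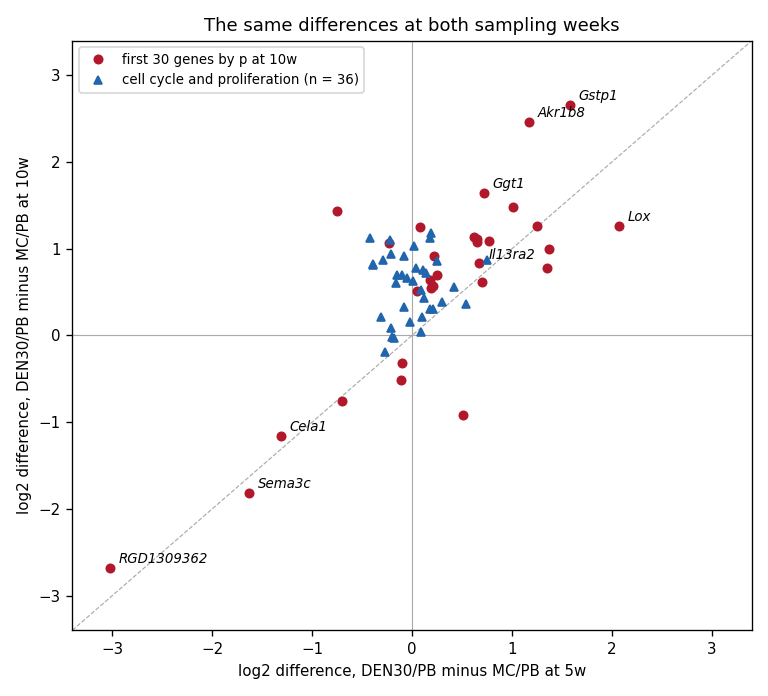
Log2 difference at 5w (horizontal) and at 10w (vertical), DEN30/PB minus MC/PB, for the 30 genes with the smallest p at 10w (red circles) and 36 cell cycle genes (blue triangles). The dashed line marks equal differences. Of the 30 genes, which were chosen for their 10w values, 27 have the same direction at 5w, and the cell cycle genes lie around 0 at 5w and mostly above 0 at 10w.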

How the data were processed

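Liver RNA of 62 rat samples had been hybridised to Affymetrix arrays. The values are linear signal intensities as the authors deposited them, made with MAS5 version 5.0 per the submitters' processing notes; neither the array model nor the scaling target was found in the labels. The mean signal of each array, trimmed by 2% at either end, lay between 500.23 and 500.27, so arrays were used without further scaling. Of 31099 probe sets, 57 controls were left out, 20826 had 1 gene symbol in the platform annotation, 436 had several and 9780 none. Of 20758 symbols checked against RefSeq, 0 were updated. Each gene (14217 in all) was represented by its probe set with the highest mean.

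A gene was tested where at least 4 arrays of that week reached a signal of 100. Tests were run on log2(signal + 25), which understates changes of low genes, with limma 3.58.1 in R 4.3.3. All 7 groups of a week were fitted together with an intensity trend in the moderated variance, and p-values were adjusted by Benjamini-Hochberg over all genes tested, with a threshold of 0.05. The 10w minus 5w test fitted both weeks, and its main fit took the arrays as independent, without a block for the animal. A fold for a gene with no MC/PB array at 100 was taken against 100. The procedure was run on simulated data, but the outcome is not given here and no result rests on it. The genes named are the 30 with the smallest p at 10w, 34 markers and, from every gene list, at most 6 members ranked by p; list members named beyond these were chosen after their values were seen. The comparison, its members and the gene lists were chosen with earlier results of these data known. Array sets were read from the residuals of the fits.

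Same-numbered DEN30/PB and MC/PB arrays were correlated in their residuals at 0.0824 to 0.22 at 10w, and 3 of 4 pairs were over 0.1, so numbers were not taken as pairs there; at 5w they gave 0.127 to 0.207, with 4 of 4 over 0.1, and 5w counts are given with the replicate block too; samples of the same animal at both weeks gave 0.294 to 0.427. DEN30/PB and MC/PB arrays with other numbers in the same array set gave 0.0154 to 0.170 at 10w and 0.0250 to 0.158 at 5w. Arrays of different sets gave -0.199 to -0.0253 at 10w and -0.185 to -0.0363 at 5w. Same-numbered arrays of these groups shared a set, and the part of the set in their correlation was not tested. Alternatives covered the offset, the filter, normalization, probe set choice, the groups fitted, blocks, array sets and each array left out.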

Additional observations from a re-analysis of the deposited data

Results flagged for a closer look

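In 110 groups of 4 arrays looked at for the genes named, 9 held an animal apart from the other 3 by Dixon's criterion, which chance meets in about 5% of groups. Il13ra2 was 468 in replicate 2 of DEN30/PB, against 303 to 316 in the other DEN30/PB livers. Lgals3bp was 2731 in the same animal, against 1843 to 1913, and its Adam8 signal was 45.1, against 99.9 to 103. Sfn, a 14-3-3 protein, was 73.0 in replicate 3 of DEN30/PB, against 99.8 to 103 in the other DEN30/PB livers, and it was 78.4 in replicate 1 of MC/PB, against 13.0 to 15.1 in the other MC/PB livers. Replicate 1 of MC/PB also stood apart with 221 for Col1a1, against 329 to 355, and with 299.9 for Top2a, against 139 to 155. Spp1 was 31.6 in replicate 4 of MC/PB, against 79.0 to 89.4, and Gpx2 was 1108 in replicate 2 of MC/PB, against 32.9 to 51.8. Replicate 2 of DEN30/PB and replicate 1 of MC/PB each stood apart in 3 of the genes named, and what sets these animals apart was not tested.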

How the results depend on the processing

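Array number and spread between animals limit these results: 4 animals a group, 3 calls, and calls that few settings all kept. Of 55 genes followed through 20 alternatives, 46 kept their sign in all. The number of genes called in DEN30/PB minus MC/PB at 10w was 3, and it was 1 with quantile normalization, 1 in array set 2 alone (Mfap4, none of the 3), 4 with only the compared groups fitted (2 of them lower, and neither Gstp1 nor Il13ra2), 2 with a replicate block (Ggt1 lost) and 0 to 3 when 1 array was left out. At 5w it was 12, against 5 with only the compared groups fitted, 1 in set 1, 0 in set 2, 9 with a replicate block and 2 to 12 with 1 array left out. Against DEN3/PB it was 0, and 0 to 1 with 1 array left out. Against the other initiators it was 9, with 4 for no offset, no filter and no variance trend, 16 for an offset of 100, 5 for quantile normalization, 3 for only the compared groups, 3 in set 1, 4 in set 2 and 3 to 11 with 1 array left out. For DEN3/PB minus MC/PB it was 2, with 1 for quantile normalization, 0 for no filter, all probe sets, only the compared groups, a replicate block and either set, and 0 to 1 with 1 array left out. The 10w minus 5w test gave 0 in all settings, also with the animal as a random block (correlation 0.315). Signs turned for Cyp2c11 (0.012 with quantile normalization, 0.028 in set 2), Myc (0.23 in set 1), Gsta3 (0.17 in set 1), Nqo1 (0.17 in set 1), Gpx2 (-0.34 in set 2), Mgmt (-0.0061 in set 2) and Epcam (0.030 in set 2). With 1 array left out, differences ran from -0.10 to 0.0019 for Cyp2c11, -0.13 to 0.0031 for Cyp3a2, -0.27 to 0.25 for Epcam, -0.27 to 0.17 for Gsta3, -0.041 to 0.20 for Mdm2 and -0.38 to 0.23 for Myc. The cause of these shifts was not tested.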

Other observations

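Other gene lists are described by the same counts at 10w. Of 14 measured antigen presentation genes, 12 had a positive difference and 1 had an unadjusted p under 0.05, with a median of 0.36, and for none of them were the groups apart. Glul, the perivenous glutamine synthetase, was 2914, 2501, 1615 and 2564 in DEN30/PB livers and 1590, 1371, 1354 and 1393 in MC/PB livers, without overlap. Of 9 measured Wnt and beta-catenin targets, 1 of which passed the filter only through its DEN30/PB signals, 8 had a positive difference. Their median was 0.31, and 2 had an unadjusted p under 0.05. Over all genes tested, 3.54% were higher and 1.64% lower at that p. Of 15 glucocorticoid-responsive and gluconeogenic genes, 11 had a negative difference, with a median of -0.30 at 10w and 0.09 at 5w. None of these members passed the adjusted threshold by limma.

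Against the mean of TAA/PB, MP/PB and APAP/PB, 3 probe sets without a gene symbol were lower in DEN30/PB livers when all probe sets were fitted, by -3.23, -2.54 and -2.41 on the log2 scale. The first of these had 213, 351, 179 and 405 in DEN30/PB livers, 831 to 5397 in TAA/PB livers, 2352 to 4525 in MP/PB livers, 2732 to 3809 in APAP/PB livers and 216 to 428 in MC/PB livers. Its DEN30/PB and MC/PB signals thus covered the same range.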
